A study of Mus musculus with 32 samples.

Results

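The genes of DNA replication and S phase are the machinery that copies the genome before a cell divides. They were followed here in microglia, the resident macrophages of the central nervous system, sorted by fluorescence from mouse spinal cord. The set is a fixed list of 48 symbols spanning 10 roles, from origin licensing to the regulators of S phase entry. All 48 were listed in the female table, which holds 13377 genes, and 43 in the male table, which holds 11999. Cdc6, Mcm10, Pole, Chaf1b and Brca1 were not listed in the male table. Both tables together hold 13704 genes.

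RNA was sequenced in 32 libraries, all labelled day 14. Every library carries the genotype label Cx3Cr1-Cre;Rosa26-iDTR, in which Cre made from the Cx3cr1 locus, a gene of microglia and other mononuclear phagocytes, turns on a diphtheria toxin receptor. Per the design text, tamoxifen and then diphtheria toxin removed the microglia for a time. Libraries labelled Depletion are called repopulated and those labelled No depletion resident, each with an injury (fracture) or without. Of the 15 female libraries, 8 were resident (4 per fracture state) and 7 repopulated (3 without and 4 with fracture). Of the 17 male libraries, 8 were resident (3 without and 5 with fracture) and 9 repopulated (2 and 7). The sample descriptions call the non-depleted libraries wild type (Wt or WT) although their genotype label is the same, and the depleted ones Dt in females and iDTR in males. The labels leave unclear whether the resident libraries were exposed to toxin, so repopulation and toxin exposure cannot be told apart here. If the descriptions hold, neither can repopulation and genotype. The labels give no ages. They also do not say that each library is a separate animal, so the spread behind every p-value is that between libraries and may be technical in part. Female and male libraries were made with different kits and lie in separate tables, so sex and kit cannot be told apart, and each table was analysed alone.

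Preparation for copying DNA begins in G1, when the origin recognition complex, CDC6 and CDT1 load the ring of MCM2 to MCM7 onto origins. At S phase entry CDC45 and the GINS complex join the ring to form the active helicase. Primase and polymerase alpha lay down primers, the RFC complex loads the PCNA clamp, and polymerases delta and epsilon extend, while RPA covers single-stranded DNA and FEN1 and LIG1 finish the lagging strand. Nucleotides come from ribonucleotide reductase and thymidylate synthase, and many of these genes are switched on together by E2F factors. Adult microglia divide rarely, and after depletion the survivors can refill the tissue by dividing.

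Female libraries held 16438827 to 18654165 estimated counts and male libraries 5722993 to 33697535. Male depth differed by group, at 5722993 to 25574427 in residents without fracture and 11770850 to 33697535 with fracture. Male repopulated libraries held 11810814 to 11987237 without fracture and 9644000 to 14914799 with fracture. The part of male depth in the results was not tested. Levels are CPM, the share of a library's counts scaled to a fixed total, with TMM factors for library composition. All 8 microglial markers were listed, with a summed level of 39500 to 48700 CPM in females and 45400 to 59200 CPM in males. Those that fell in the averaged comparison in repopulated females included P2ry12 (-0.62), Cx3cr1 (-0.29), Tmem119 (-0.24) and Sall1 (-0.24, log2). In repopulated males they included P2ry12 (-0.81), Fcrls (-0.61), Cx3cr1 (-0.40) and Tmem119 (-0.31). At most 4 called genes were named per list, and 4.09% of all female and 5.68% of all male genes were called lower. None of the 6 T and NK cell or 5 neutrophil markers was listed. Of 6 B cell markers, 3 were listed (Ighm, Ighd and Cd79b), and Cd79a and Ms4a1 were among those that were not. The sum of the listed ones was 489 to 625 CPM in female residents without fracture, 545 to 600 CPM in residents with fracture, 343 to 376 CPM in repopulated cells without fracture and 389 to 461 CPM with fracture. The 3 listed of 6 border-associated macrophage markers summed to 0.836 to 5.43 CPM over the female resident libraries and to 4.96 to 65.1 CPM over the repopulated ones, with Lyve1, Cd163 and F13a1 not listed. The 3 listed of 6 monocyte markers summed to 4.55 to 35.2 CPM in female residents, 35.1 to 54.0 CPM in repopulated cells without fracture and 11.3 to 19.9 CPM with fracture, with Ly6c2 and Ccr2 among those not listed and Itgal higher (2.08). The 2 listed of 4 endothelial markers summed to 16.8 to 25.5 CPM in female residents and 1.59 to 8.12 CPM in repopulated cells (Pecam1 -2.25). The 4 listed of 7 oligodendrocyte and precursor markers summed to 117 to 279 CPM in female residents without fracture and 112 to 189 CPM with fracture. In repopulated females their sum was 164 to 189 CPM without fracture and 129 to 165 CPM with fracture. Of these 4, the precursor marker Cspg4 was higher in repopulated females (adjusted p = 0.00346) and at 0 in all residents without fracture. Mog, Pdgfra and Olig1 were not listed. The part of these shifts in the results was not tested. In bulk samples, fewer cycling cells and less RNA per cell cannot be told apart. Each table lists only transcripts with at least 10 counts in at least 8 of 15 female or 9 of 17 male libraries. With 8 female resident and 7 repopulated libraries, a transcript present only in residents could be listed but one present only in repopulated cells could not, and with 8 and 9 male libraries the reverse holds.

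One female library stood apart in these genes. Resident replicate 1 without fracture was the highest of its 4 libraries for 43 of the 48 genes, with a median ratio of 1.59 to the highest of the other 3. Replicate 2 of the same group was the lowest of the 4 for 33 genes. Over the 48 genes, the mean log2 CPM was 4.68 in replicate 1 and 3.20, 3.83 and 3.89 in replicates 2 to 4. It was 3.56, 3.34, 3.87 and 3.70 in residents with fracture, 3.06, 2.98 and 3.30 in repopulated cells without fracture, and 3.21, 2.99, 2.55 and 2.95 with fracture. The repopulated libraries thus lay at or below the lower end of the residents: the 2 highest, at 3.30 and 3.21, were above 1 resident library, replicate 2 without fracture at 3.20. Results that lean on replicates 1 and 2 are given below with and without them.

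**Figure D1:**
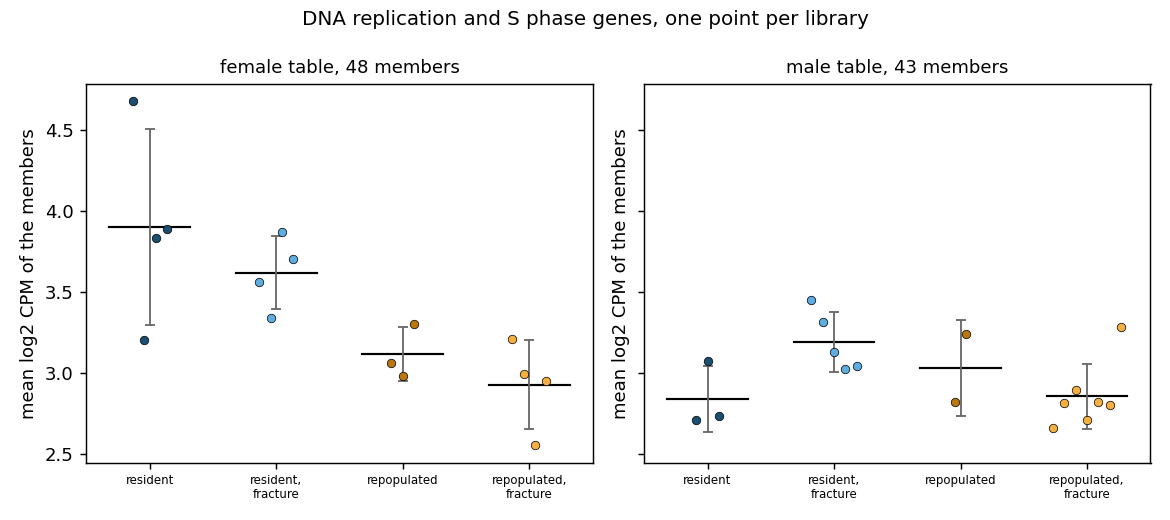
Mean log2 CPM of the listed DNA replication and S phase genes in each library (y axis), by group (x axis), with females and males in separate panels. Points are libraries, and bars are the mean and SD of a group. Female resident libraries lie between 3.20 and 4.68 and repopulated ones between 2.55 and 3.30, whereas the male groups overlap.

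In females, replication genes were lower in repopulated than in resident microglia when both fracture states were averaged. Of the 48 genes, 21 fell and none rose at an adjusted p below 0.05 (edgeR quasi-likelihood test, Benjamini-Hochberg over all genes). The background was 4.09% of all genes called lower and 4.43% called higher. The log2 change was below 0 for 44 of the 48 (52.5% of all genes), with a median of -0.70 against -0.015 over all genes. For 7 genes (Mcm2, Mcm5, Mcm7, Prim2, Rpa2, Rrm2 and Uhrf1) every one of the 7 repopulated libraries lay below every one of the 8 resident libraries, against a background of 1.08% of genes. Leaving out resident replicate 1 without fracture gave 19 genes lower, 1 higher (E2f1) and a median of -0.54. Leaving out both replicates 1 and 2, an alternative chosen after seeing the data, gave 18 lower and a median of -0.61. Of the 21, 13 stayed called in each of the 15 fits that left out 1 library: Mcm2, Mcm4, Mcm5, Mcm7, Prim2, Pola1, Fen1, Rrm1, Rrm2, Uhrf1, Brip1, Ccne1 and Ccne2. The other 8 lost their call in at least 1 such fit, and without repopulated replicate 1 without fracture 14 of the 21 stayed called.

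Each fracture state alone gave fewer calls in the same direction. Without fracture, 6 genes were lower (Mcm2, Mcm4, Mcm7, Prim2, Uhrf1 and Brip1) and none higher, against backgrounds of 0.964% and 1.56%. The log2 change was below 0 for 45 of 48 (52.4% of all genes), with a median of -0.73, and the groups did not overlap for 17 genes, all with the repopulated libraries below (background 6.44%). The count of genes called lower rested on single libraries. It was 2 without resident replicate 1, when the median was -0.45, 3 without resident replicate 4, and 0, 1 and 2 without repopulated replicates 1, 2 and 3. It was also 3 without resident replicate 2 with fracture, which enters through the shared spread, 9 without resident replicate 3, and 0 without resident replicates 1 and 2 together, a fit in which only 12 of all 13377 genes were called against 338 with every library. With fracture, where resident replicates 1 and 2 without fracture enter only through the shared spread, 2 genes were lower (Mcm2 and Dnmt1) and none higher, against backgrounds of 1.08% and 1.27%. Here 43 of 48 were below 0 (50% of all genes), with a median of -0.61, and 17 genes again had every repopulated library below every resident one (background 5.64%), while E2f1 had every repopulated library above (background 6.26%). The count of genes called lower with fracture was 8 without resident replicate 1 without fracture, 6 without replicate 2, and 10 without both. It was 0 without resident replicate 1, 3 or 4 or repopulated replicate 4 with fracture, and 1 without resident replicate 2 or repopulated replicate 1, 2 or 3 with fracture. No gene was called in every leave-one-out fit of either fracture state alone.

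**Figure D2:**
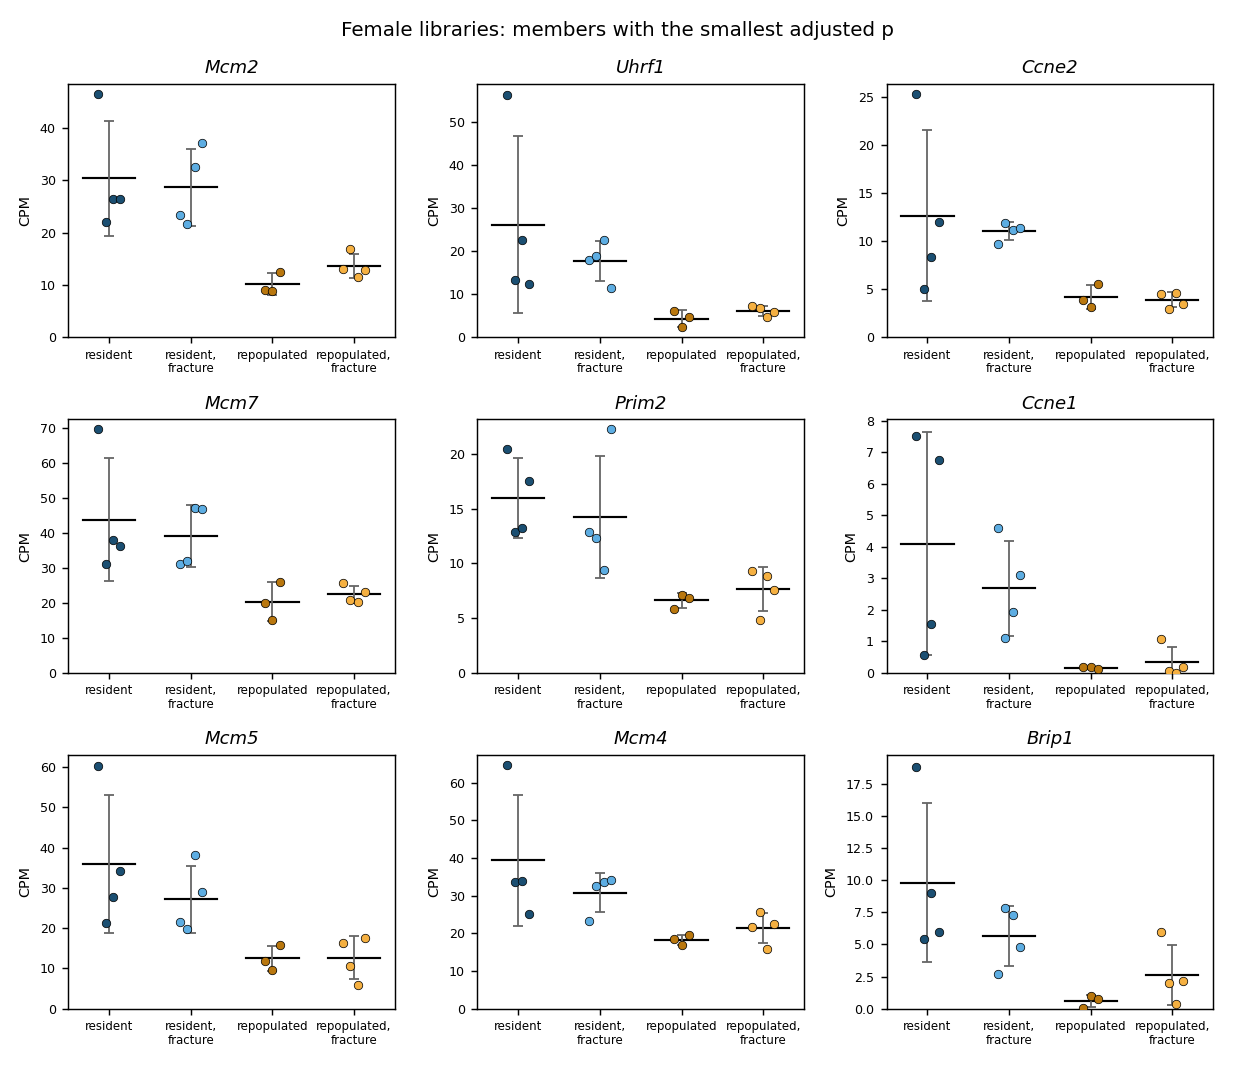
CPM in each female library (y axis, linear from 0) for the 9 genes with the smallest adjusted p in the averaged comparison, by group (x axis). Points are libraries, black lines group means and grey bars SD; for Mcm2, the 7 repopulated libraries lie between 8.85 and 16.8 CPM and the 8 resident ones between 21.6 and 46.6 CPM.

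The sequences upstream of the starts of these genes were read from the RefSeq promoter table (GRCm38.p6), which has entries for 40 of the 48. The window ran from 250 bases before to 50 after a start. An E2F-type motif (TTTCGCGC, TTTCCCGC, TTTGGCGC or TTTGCCGC, either strand) was found for 16 of the 40 genes, or 40%, against 704 of 27025 genes in the table, or 2.6%. TTTCGCGC was found for 7 (17.5% against 0.374% of all genes), TTTCCCGC for 9 (22.5% against 1.24%), TTTGGCGC for 6 (15% against 0.585%) and TTTGCCGC for none (0.507% of all genes). TTTCGCGC and TTTGGCGC can overlap on opposite strands, as they do in Mcm5. Of the genes with an entry, 9 of the 18 called lower in the averaged female comparison held an E2F-type motif, and 7 of the other 22. The CCAAT box was found for 24 of 40 (60% against 41.1%), and TTTGAA, a core of the cell cycle homology region of later cell cycle genes, for 5 (12.5% against 20.2%). A match is a run of letters and not a measured site. The set was chosen by role, and E2F factors switch on many such genes, so its share of motifs describes the list and not these libraries. The 27025 genes were not limited to those listed in the female or male table.

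The 250 bases before the start are shown for 5 genes that fell and hold such a motif, 5′ to 3′ on the gene's strand, with E2F-type matches in capitals. Mcm5 at chr8:75109259-75109508 (plus strand) holds a match on each strand in 1 run of 12 bases. Mcm7 lies at chr5:138171884-138172133 (minus), Cdc6 at chr11:98907901-98908150 (plus), Pola1 at chrX:93632156-93632405 (minus) and Uhrf1 at chr17:56304063-56304312 (plus), all in GRCm38.p6.
Mcm5: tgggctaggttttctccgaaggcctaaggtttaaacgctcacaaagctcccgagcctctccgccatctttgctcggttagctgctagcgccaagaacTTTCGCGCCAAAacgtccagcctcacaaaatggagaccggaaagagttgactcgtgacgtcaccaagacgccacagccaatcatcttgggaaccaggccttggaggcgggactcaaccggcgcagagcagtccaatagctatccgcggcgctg
Mcm7: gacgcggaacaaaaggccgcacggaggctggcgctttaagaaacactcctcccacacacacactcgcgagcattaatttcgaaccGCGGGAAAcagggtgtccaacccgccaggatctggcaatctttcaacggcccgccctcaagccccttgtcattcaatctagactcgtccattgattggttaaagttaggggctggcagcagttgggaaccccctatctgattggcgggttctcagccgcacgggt
Cdc6: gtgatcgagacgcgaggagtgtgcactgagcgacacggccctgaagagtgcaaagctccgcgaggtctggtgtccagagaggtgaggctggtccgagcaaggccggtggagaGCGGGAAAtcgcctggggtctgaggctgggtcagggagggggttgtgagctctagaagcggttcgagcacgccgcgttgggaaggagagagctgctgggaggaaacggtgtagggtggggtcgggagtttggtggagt
Pola1: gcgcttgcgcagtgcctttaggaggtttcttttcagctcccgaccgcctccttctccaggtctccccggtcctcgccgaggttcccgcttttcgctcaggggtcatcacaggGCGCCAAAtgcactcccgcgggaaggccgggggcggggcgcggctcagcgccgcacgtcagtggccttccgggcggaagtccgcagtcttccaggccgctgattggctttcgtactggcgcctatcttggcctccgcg
Uhrf1: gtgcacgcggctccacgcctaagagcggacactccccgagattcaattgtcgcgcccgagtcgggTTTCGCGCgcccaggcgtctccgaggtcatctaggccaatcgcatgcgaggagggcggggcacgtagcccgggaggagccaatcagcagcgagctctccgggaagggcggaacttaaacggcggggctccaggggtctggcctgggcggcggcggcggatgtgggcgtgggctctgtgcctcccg
In the part shown, Mcm5 and Uhrf1 share the run with a TTTCGCGC core, Mcm7 and Cdc6 the reverse complement of TTTCCCGC, and Pola1 that of TTTGGCGC. Mcm7 also holds TTTCGCGC in the 50 bases after the start, which are not shown.

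Origin licensing held the most calls of the 10 roles. Of its 9 genes, 7 fell in the averaged female comparison, with a median log2 change of -0.96. Mcm2 (ENSMUSG00000002870.8), an amino-terminal histone-binding subunit of the ring, read 46.6, 22.1, 26.5 and 26.4 CPM in residents without fracture and 23.3, 21.6, 32.5 and 37.2 CPM with fracture. Its repopulated libraries read 8.99, 8.85 and 12.5 CPM without fracture and 13, 16.8, 11.4 and 12.9 CPM with fracture. All 7 lay below the lowest resident library. Its averaged log2 change was -1.33 ± 0.18 (SE, adjusted p = 0.000484), and it fell without fracture (-1.59 ± 0.27, adjusted p = 0.00979) and with fracture (-1.08 ± 0.24, adjusted p = 0.0297) taken alone.

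Mcm7 (ENSMUSG00000029730.16) read 69.7, 31.1, 38.0 and 36.4 CPM in residents without fracture and 31.0, 32.0, 47.1 and 46.7 CPM with fracture. In repopulated cells the gene read 19.9, 15.1 and 26.1 CPM, then 25.6, 20.7, 20.3 and 23.0 CPM. The lowest resident value, 31.0 CPM, exceeded the highest repopulated one, 26.1 CPM, and the averaged change was -0.96 ± 0.18 (adjusted p = 0.00344). Mcm5 (ENSMUSG00000005410.6) read 60.2, 21.2, 27.7 and 34.3 CPM, then 21.6, 19.9, 38.2 and 29.0 CPM in the residents. Repopulated cells gave 11.9, 9.64 and 15.9 CPM, then 16.3, 10.7, 5.97 and 17.5 CPM. The groups again did not overlap, with an averaged change of -1.31 ± 0.27 (adjusted p = 0.00657).

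Mcm4 (ENSMUSG00000022673.5), which with MCM6 and MCM7 forms the catalytic core of the helicase, overlapped at its edges. It read 64.8, 33.7, 33.9 and 25.2 CPM in residents without fracture and 23.2, 32.5, 33.5 and 34.1 CPM with fracture, against 18.5, 16.8 and 19.5 CPM and 21.8, 25.6, 15.9 and 22.5 CPM in repopulated cells. One repopulated library, at 25.6 CPM, exceeded the lowest resident in each fracture state, and the averaged change was -0.82 ± 0.18 (adjusted p = 0.00901). Mcm6 (-0.62 ± 0.17, adjusted p = 0.0315) and Mcm3 (-0.46 ± 0.13, adjusted p = 0.0371) also fell in the averaged comparison, as did the loader gene Cdc6 (-2.06 ± 0.54, adjusted p = 0.0263). Cdc6 was low, at 0.341 to 12.7 CPM in residents and 0.622 to 2.46 CPM in repopulated cells. These 3 lost the call when single libraries were left out. Cdt1, the partner of CDC6 in loading, had -0.33 (adjusted p = 0.448), and Mcm10 had -1.58 ± 1.08 (adjusted p = 0.473) with 3 of 4 repopulated libraries with fracture at 0.

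The genes that turn the loaded ring into a moving helicase gave no call. Cdc45 and the 4 GINS subunits had log2 changes from -1.26 to -0.01 with a median of -0.53. Cdc45 ranged from 0.454 to 13.8 CPM in residents without fracture, and its change had an adjusted p of 0.216. Gins4 differed little, at 20.8, 23.3, 22.2 and 23.2 CPM in residents without fracture and 23.7, 18 and 21.8 CPM in repopulated cells (-0.01 ± 0.11). Gins2 came closest, with -0.55 and an adjusted p of 0.0563.

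Primase and the replicative polymerases gave 2 calls among 6 genes, with a median of -0.75. Prim2 (ENSMUSG00000026134.11), the large primase subunit, read 20.5, 12.9, 13.2 and 17.5 CPM in residents without fracture and 12.9, 12.3, 9.41 and 22.3 CPM with fracture. Its repopulated libraries read 5.83, 7.16 and 6.88 CPM, then 9.29, 4.84, 8.83 and 7.62 CPM, all below the lowest resident. The averaged change was -1.08 ± 0.21 (adjusted p = 0.00354). Pola1 (ENSMUSG00000006678.6), the catalytic subunit of polymerase alpha, fell by 0.80 ± 0.19 on the log2 scale (adjusted p = 0.0136). It read 19.1, 11.2, 13.5 and 11.3 CPM in residents without fracture against 6.26, 6.26 and 8.72 CPM, and 7.6, 12, 10.2 and 6.66 CPM with fracture against 4.81, 7.23, 5.1 and 6.23 CPM. Its groups separated without fracture and overlapped with fracture. Prim1 (-0.86, adjusted p = 0.139), Pole (-0.69), Pold1 (-0.41, adjusted p = 0.196) and Pola2 (-0.08) were not called.

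Among the clamp and its loaders, 1 of 7 genes fell, with a median of -0.32. That gene was Rfc3, a small loader subunit (-0.53 ± 0.15, adjusted p = 0.0319), which was called in some leave-one-out fits only. Pcna, the clamp itself, read 66, 42.4, 49.9 and 44.9 CPM in residents without fracture against 37.9, 45.3 and 40.9 CPM, and its averaged change of -0.32 ± 0.10 had an adjusted p of 0.0704. Rfc1, the large loader subunit, differed little, at 34.8, 39.6, 33.2 and 31.1 CPM against 39.2, 30.3 and 34.4 CPM (0.01 ± 0.09). Rfc4 had -0.94 (adjusted p = 0.0534). Atad5, which unloads PCNA, was at 0 in 3 of 4 residents with fracture and at 7.25 CPM in replicate 4, and its averaged change was 0.67 ± 0.87 (adjusted p = 0.753). Without that library Atad5 was called higher in repopulated cells with fracture and lower in residents with fracture than in those without.

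Of the lagging strand genes, 1 of 2 fell, and of the single-strand binding genes 2 of 3. Fen1 (ENSMUSG00000024742.15), the flap endonuclease, read 50.5, 16.9, 31.7 and 31.0 CPM in residents without fracture and 27.3, 30.2, 34.4 and 38.0 CPM with fracture. Repopulated cells read 20.9, 18.5 and 15.6 CPM, then 14.7, 23.1, 17.2 and 18.4 CPM, separated from residents with fracture but overlapping resident replicate 2 without fracture. The averaged change was -0.83 ± 0.19 (adjusted p = 0.0102). Lig1, the ligase that joins the fragments, had -1.14 ± 0.56 (adjusted p = 0.275). Of the RPA subunits, Rpa2 (-0.51 ± 0.13, adjusted p = 0.0197) and Rpa1 (-0.43 ± 0.11, adjusted p = 0.0261) fell and Rpa3 had -0.27.

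Nucleotide supply gave 3 calls among 5 genes, with a median of -0.78. Rrm2 (ENSMUSG00000020649.11), the S phase subunit of ribonucleotide reductase, read 52.3, 11.9, 17.0 and 21.3 CPM in residents without fracture and 18.3, 17.6, 28.8 and 19.6 CPM with fracture. In repopulated cells the gene read 8.18, 6.99 and 6.37 CPM, then 6.74, 8.48, 0.56 and 4.68 CPM, all below the lowest resident at 11.9 CPM. The averaged change was -1.94 ± 0.44 (adjusted p = 0.0141). Rrm1, the large subunit, read 95.4, 37.8, 53.7 and 46.0 CPM without fracture against 44.4, 24.9 and 34.8 CPM, and 48.1, 44.4, 59.8 and 56.6 CPM with fracture against 31.2, 26.8, 28.8 and 31.5 CPM. It fell by 0.78 ± 0.18 on the log2 scale (adjusted p = 0.0116), with the groups apart with fracture and overlapping without. Tyms, thymidylate synthase, also fell (-0.72 ± 0.18, adjusted p = 0.0219), whereas Dut (-1.02, adjusted p = 0.121) and Tk1 (-0.46, adjusted p = 0.181) were not called.

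Of the 5 genes of chromatin assembly and DNA methylation, Uhrf1 and Dnmt1 fell. Uhrf1 (ENSMUSG00000001228.14) recognises hemimethylated DNA behind the fork and recruits DNMT1, the maintenance methyltransferase. It read 56.1, 13.3, 22.5 and 12.3 CPM in residents without fracture and 17.9, 18.9, 22.6 and 11.3 CPM with fracture. Repopulated libraries read 6.07, 2.2 and 4.59 CPM, then 7.14, 6.77, 4.6 and 5.77 CPM. All 7 lay below every resident library, and the averaged change was -2.07 ± 0.34 (adjusted p = 0.00159). Without fracture it was -2.60 ± 0.52 (adjusted p = 0.0182), and -1.90 when resident replicate 1 was left out. Dnmt1 (ENSMUSG00000004099.16) fell less, by 0.43 ± 0.11 on the log2 scale (adjusted p = 0.0174). It read 53.5, 33.7, 41.5 and 44.0 CPM against 38.7, 32.3 and 38.6 CPM without fracture, where groups overlapped, and 36.0, 38.4, 43.0 and 43.4 CPM against 24.0, 25.2, 31.2 and 24.6 CPM with fracture, where they did not (-0.62 ± 0.14, adjusted p = 0.0343). The helicase gene Hells had -0.80 (adjusted p = 0.204), and the histone chaperone genes Chaf1a (0.02) and Chaf1b (-1.53 ± 1.18, adjusted p = 0.54) were not called.

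Fork repair gave 1 call among 3 genes. Brip1 (ENSMUSG00000034329.16), a helicase that works with BRCA1, read 18.8, 5.45, 9.03 and 5.96 CPM in residents without fracture against 0.062, 1.01 and 0.727 CPM. With fracture it read 2.69, 7.82, 7.27 and 4.83 CPM against 5.95, 1.99, 0.373 and 2.19 CPM. The groups were apart without fracture (-4.00 ± 0.89, adjusted p = 0.0306, and -4.59 without repopulated replicate 2) and overlapped with fracture, and the averaged change was -2.55 ± 0.56 (adjusted p = 0.00943). Brca1 (-0.94, adjusted p = 0.444) and Brca2 (-0.45, adjusted p = 0.151) were not called.

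The regulators of S phase entry split. Ccne1 (ENSMUSG00000002068.16), cyclin E1, read 7.53, 0.568, 1.55 and 6.76 CPM in residents without fracture and 4.59, 1.12, 1.93 and 3.12 CPM with fracture. Its repopulated libraries read 0.186, 0.169 and 0.112 CPM, then 1.08, 0.0569, 0.0 and 0.173 CPM. All but 1 of the repopulated libraries had 3 or fewer estimated counts. The 1 listed Ccne1 transcript therefore met the listing rule, at least 10 counts in at least 8 female libraries, mainly through the residents. A transcript present only in repopulated cells could not have been listed, so the rule favours a fall for a gene like this. The ratio and change below, and the call in every leave-one-out fit, carry that limit. Over the pooled counts without fracture, the resident level was 26.6 times the repopulated one, with an exact 95% interval of 13.3 to 62.2 that covers counting error only. The averaged log2 change was -3.83 ± 0.79 (adjusted p = 0.00581), and -4.83 without repopulated replicate 1 with fracture, the library at 1.08 CPM.

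Ccne2 (ENSMUSG00000028212.16), cyclin E2, read 25.3, 5.0, 8.36 and 12 CPM against 3.9, 3.1 and 5.54 CPM without fracture, and 9.65, 11.9, 11.2 and 11.4 CPM against 4.47, 2.96, 4.6 and 3.46 CPM with fracture. One repopulated library, at 5.54 CPM, lay above 1 resident, replicate 2 at 5.0 CPM, and the averaged change was -1.55 ± 0.29 (adjusted p = 0.00317). E2f1 (ENSMUSG00000027490.17), an activating E2F factor, pointed the other way, at 9.16, 1.87, 8.25 and 3.11 CPM against 9.73, 8.51 and 4.92 CPM without fracture. With fracture it read 3.43, 2.19, 3.19 and 2.15 CPM against 6.46, 7.0, 10.5 and 5.48 CPM, so that all 4 repopulated libraries were above the residents. Its averaged change of 0.94 ± 0.32 was not called (adjusted p = 0.0835), but E2f1 was called higher in the averaged comparison without resident replicate 1 without fracture, and in the comparison with fracture without resident replicate 2 without fracture.

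**Figure D3:**
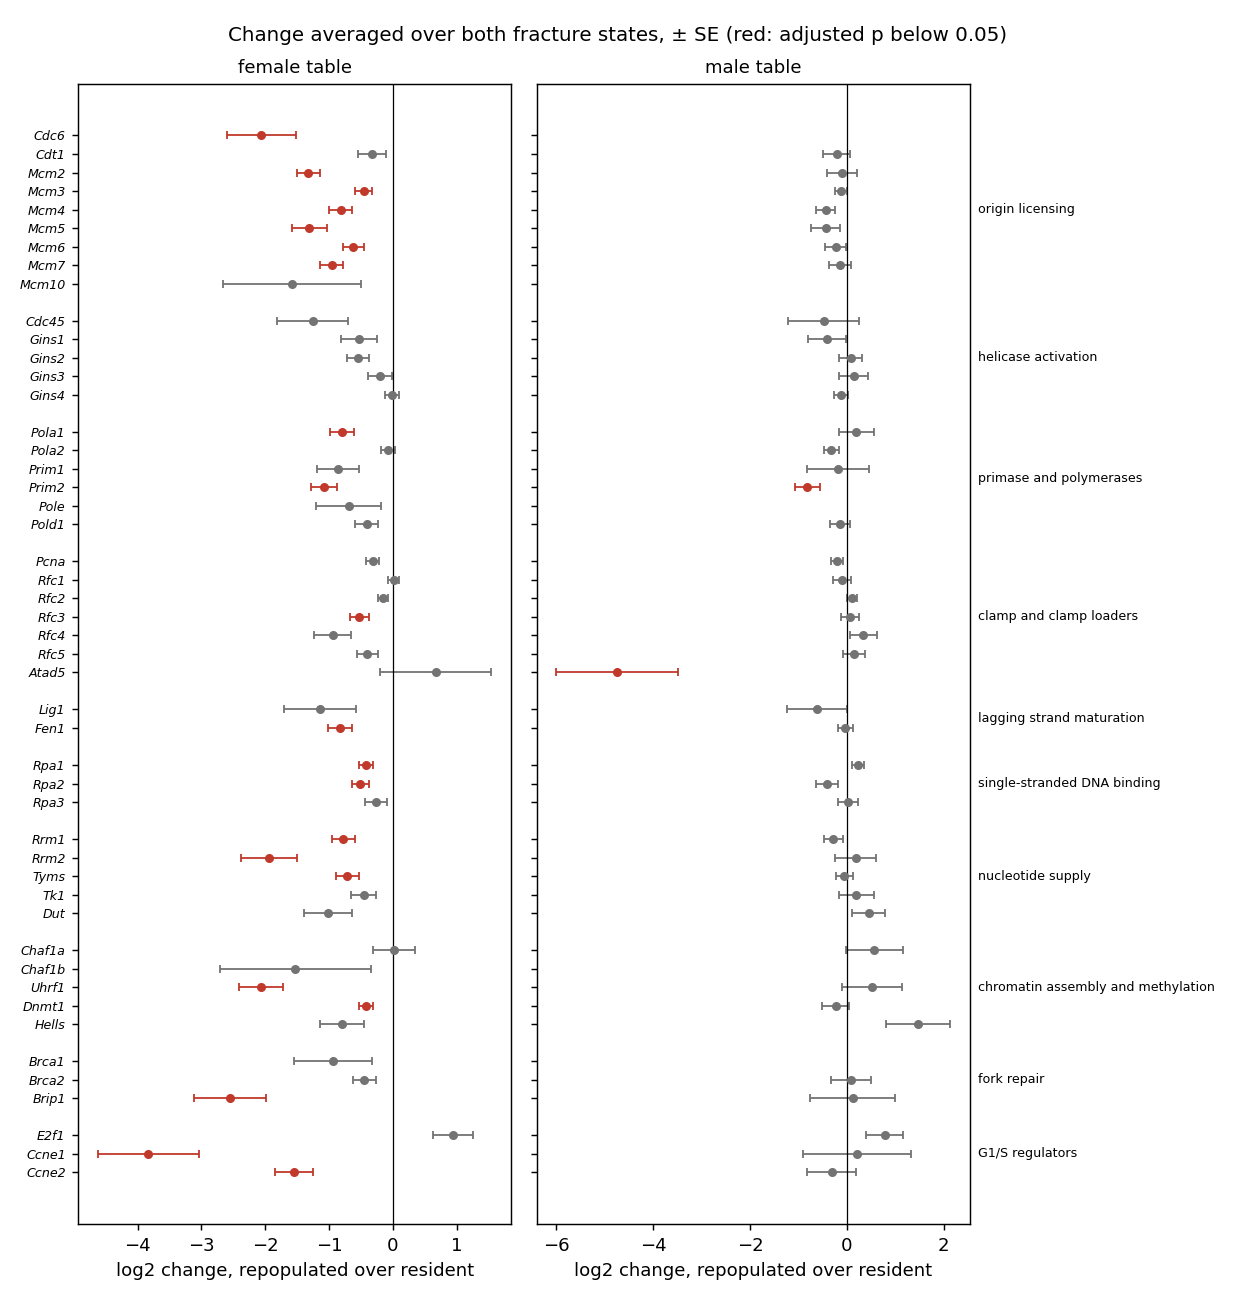
Averaged log2 change, repopulated against resident (x axis, with SE bars), for each listed gene grouped by role (y axis), in females and males. Red points have an adjusted p below 0.05: 21 genes in females, 7 of them in origin licensing, and 2 in males.

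The female genes differed in how steady they were within groups. The within-group SD of log2 CPM was 0.15 for Rfc1, 0.16 for Rfc2 and 0.19 for Dnmt1, Gins4 and Pcna. It was 2.47 for Chaf1b, 1.76 for Mcm10 and 1.67 for Atad5, whose uncalled changes carry wide errors.

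**Figure D4:**
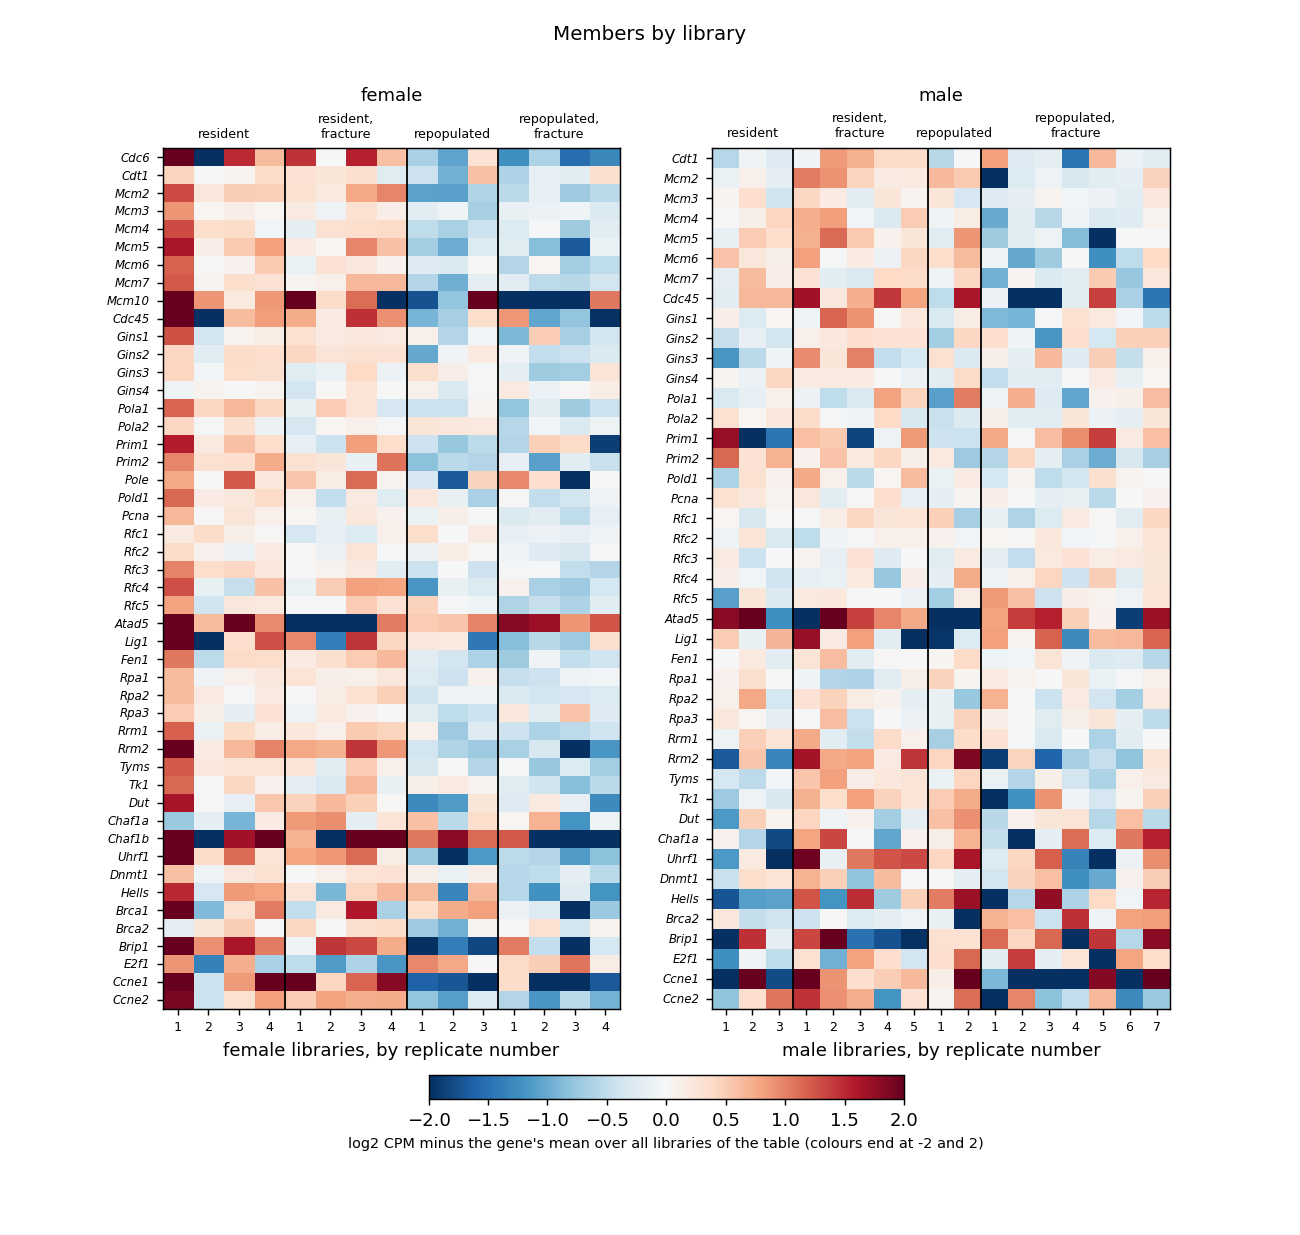
log2 CPM minus the gene's mean over its table's libraries (colour, ends at -2 and 2), for the genes (rows, by role) in each library (columns, by group), females and males apart. Female resident replicate 1 without fracture is the highest of its group for 43 genes, and 7 of the 9 licensing genes were called lower in the female repopulated cells.

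None of these genes was called for fracture in females. In resident cells 0 of 48 were called (edgeR adjusted p below 0.05; background 0.0%), 5 had an unadjusted p below 0.05 (Pola1, Pold1, Rfc1, Rfc3 and E2f1; background 4.93%), and DESeq2 called none of the 21 members it gave an adjusted p (background 0.0391%). The median log2 change was -0.23 and 44 of 48 were below 0, with replicate 1 among the libraries without fracture. In repopulated cells 0 were called (background 0.0%), 6 had an unadjusted p below 0.05 (background 10.5%), DESeq2 called 0 (background 0.665%) and the median was -0.08. The test of whether the repopulation difference depended on fracture also called 0 (background 0.0%), with 1 gene, Brip1 (2.90 ± 1.08), at an unadjusted p below 0.05 (background 3.69%), 0 by DESeq2 (background 0.00748%) and a median of 0.09.

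**Figure D5:**
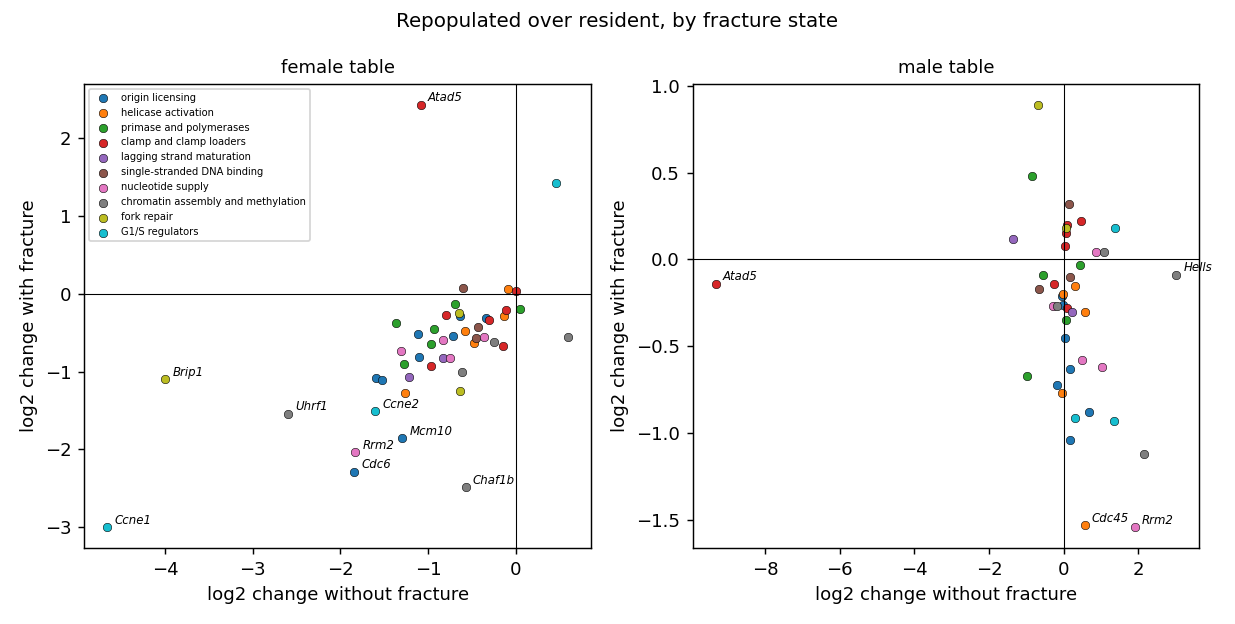
log2 change of repopulated against resident cells without fracture (x axis) and with fracture (y axis) for each listed gene, coloured by role, in females and males. In females 45 of 48 genes lie below 0 without fracture and 43 with fracture, whereas in males 28 of 43 lie above 0 without fracture and 31 lie below 0 with it.

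Other genes of the cell cycle were counted from lists drawn up beside the set. In the averaged female comparison, 23 of 30 mitosis genes fell and none rose, with a median of -1.85, among them Plk1 (-2.46), Prc1 (-2.50), Kif11 (-2.11) and Birc5 (-1.98), which run spindle assembly and division. The proliferation marker Mki67 read 85.1, 19.4, 40.5 and 55.7 CPM in residents without fracture and 53.2, 37.3, 67.2 and 56.7 CPM with fracture. The repopulated libraries held 21.8, 20.2 and 26.5 CPM, then 5.61, 13.3, 4.91 and 2.25 CPM, and it fell by 2.09 ± 0.37 on the log2 scale (adjusted p = 0.00353). Top2a, the topoisomerase that untangles copied DNA, fell by 2.09 ± 0.40 (adjusted p = 0.00569). Of 30 replication factors outside the set 2 fell, near the 4.09% of all genes called lower, with a median of -0.24. They were the origin-firing kinase gene Cdc7 (-1.20 ± 0.23, adjusted p = 0.00338) and Mcm8 (-3.08 ± 0.60, adjusted p = 0.00422), a repair helicase subunit.

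Among 26 G1 cyclin, CDK, inhibitor and E2F-RB genes measured, 3 fell and none rose, against the same 4.09%. These were Cdkn1a, the p21 inhibitor (-1.15 ± 0.12, adjusted p = 0.000129), the G1 cyclin Ccnd1 (-0.62, adjusted p = 0.003) and the S phase cyclin Ccna2 (-1.66 ± 0.43, adjusted p = 0.0291). Of 18 replication stress and recombination genes 4 fell, among them Fancd2 (-1.73) and Rad54l (-0.76), and of 13 histone supply genes 2 fell (H2ax -0.99 and Asf1b -1.16). Of 18 other nucleotide synthesis genes only Samhd1, which degrades dNTPs, was called, and it rose (0.39, adjusted p = 0.0133).

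In males few genes were called, and most changes were above 0 without fracture and below 0 with it. Without fracture, 1 of 43 genes was lower and none higher (backgrounds 2.72% and 4.7%), 28 of 43 were above 0 and the median log2 change was 0.10, with 3 resident and 2 repopulated libraries. The groups did not overlap for 5 genes with both repopulated libraries below (Pola2, Prim2, Pcna, Atad5 and Lig1; background 18.4%) and for 7 with both above (Mcm2, Tk1, Dut, Chaf1a, Uhrf1, Hells and E2f1; background 17.0%), so that both counts were near or below their background. Without repopulated replicate 2 the median was -0.18. With fracture, 0 genes were called in either direction (backgrounds 1.88% lower and 3.03% higher), 31 were below 0, the median was -0.21, 8 had an unadjusted p below 0.05 (background 15.7%) and DESeq2 called 3 lower (Mcm4, Mcm5 and Rrm2; background 2.87% lower). Over all male genes, 47.2% were above 0 without fracture and 50.9% below 0 with fracture, with medians of -0.028 and -0.005. Averaged, 2 genes fell and none rose (backgrounds 5.68% and 7.14%), with a median of -0.10, and no gene had all 9 repopulated libraries below all 8 residents (background 0.925%). The test of whether the male difference depended on fracture called 0 of 43 genes (background 0.00833%), 8 had an unadjusted p below 0.05 (background 7.38%), the median was -0.41 and DESeq2 called none (background 1.52%), giving 1 member an adjusted p.

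The male calls were Atad5 and Prim2. Atad5 was at 0 in both repopulated libraries without fracture against 7.05, 8.23 and 0.751 CPM in residents, at least 20.2-fold lower when set against a floor of 3 counts per library (adjusted p = 0.0183). With fracture it read 0, 8.33, 5.16, 3.9 and 3.34 CPM in residents, and 0.428, 3.47 and 6.68 CPM as the lowest, median and highest of 7 repopulated libraries, so the groups overlapped. The averaged change had an adjusted p of 0.0144. Only 1 of its 4 annotated transcripts is listed in this table, and without either repopulated library without fracture the call there was lost (highest adjusted p = 0.158). Prim2 read 14.4, 7.89 and 10.5 CPM in residents against 7.34 and 3.82 CPM without fracture, which did not overlap. With fracture it read 6.8, 9.58, 7.36, 8.56 and 7.0 CPM in residents, against a lowest of 3.14, a median of 4.2 and a highest of 8.57 CPM. Its averaged change was -0.82 ± 0.26 (adjusted p = 0.0428). Neither kept its averaged call in all 17 leave-one-out fits, and both lost it without repopulated replicate 2 without fracture. Prim2 alone lost it without each of 12 other libraries, and Atad5 alone without repopulated replicate 1 without fracture, so each averaged count was 0, 1 or 2.

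With fracture, the male genes with the smallest p, none of which passed the threshold, were Mcm5, Mcm4 and Rrm2. One gene was called lower without resident replicate 1 or 2 or either repopulated library without fracture, and likewise without resident replicate 3 or 4 or repopulated replicate 2 with fracture. Without repopulated replicate 7 with fracture 2 genes were. Mcm5 read 17.4, 23.4, 15.2, 11.2 and 12.6 CPM in residents, and 2.26, 9.1 and 10.6 CPM as the lowest, median and highest repopulated libraries. It was the 1 gene without overlap there (background 1.58%), with -1.04 ± 0.31 (adjusted p = 0.0524). Mcm4 read 25.4, 27.5, 14.8, 12.5 and 21.7 CPM in residents against 7.59, 12.7 and 16.0 CPM, overlapping, with -0.72 ± 0.21 (adjusted p = 0.0528). Rrm2 read 14.2, 7.54, 7.76, 4.94 and 12 CPM against 1.1, 2.74 and 6.04 CPM, with -1.54 ± 0.46 (adjusted p = 0.0557). Without fracture the Rrm2 values ran the other way, at 1.28, 6.55 and 1.7 CPM in residents and 5.97 and 16.4 CPM in repopulated cells (1.90 ± 0.72, adjusted p = 0.133). The difference between its 2 changes was -3.44 ± 0.86 with an adjusted p of 0.342. The median and range of Mcm2 in repopulated cells with fracture were 9.33 and 1.19 to 15.0 CPM against 12.2 to 22.6 CPM in residents (-0.88 ± 0.33, adjusted p = 0.161).

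Male Tyms read 12, 10.6 and 14.7 CPM in residents without fracture and 22.6, 27.1, 16.7, 17.7 and 18.2 CPM with fracture. Repopulated cells read 14.0 and 20.7 CPM without fracture, and 9.82, 13.9 and 17.3 CPM as the lowest, median and highest with fracture, just overlapping the residents (-0.58 ± 0.19, adjusted p = 0.0955). Mcm6 read 35.9, 28.2 and 26 CPM in residents and 30.9 and 37.4 CPM in repopulated cells without fracture. With fracture it read 42.6, 23.4, 26.9, 22.3 and 32.0 CPM against a lowest of 10.2, a median of 16.9 and a highest of 31.9 CPM, again overlapping (-0.63 ± 0.24, adjusted p = 0.149). Hells, a chromatin remodeller of DNA methylation, read 0.279, 0.504 and 0.514 CPM in residents without fracture, below both repopulated libraries at 2.65 and 4.36 CPM (3.02 ± 1.12, adjusted p = 0.122). With fracture it read 3.13, 0.465, 3.64, 0.696 and 1.75 CPM in residents and 0.0914, 1.18 and 4.51 CPM as the lowest, median and highest in repopulated cells (-0.09 ± 0.69), with full overlap.

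Fracture itself gave no male call. In resident cells 0 of 43 were called (background 0.00833%), 7 had an unadjusted p below 0.05 (Cdt1, Gins3, Rpa1, Rrm2, Tyms, Uhrf1 and Hells; background 4.26%), DESeq2 called 0 (background 0.1%) and the median was 0.21. Of these 7, Rpa1 had a log2 change of -0.39 and the other 6 were above 0, from 0.71 for Tyms to 2.23 for Uhrf1, each with an adjusted p of 1.0. In repopulated cells 0 were called (background 0.00833%), 5 had an unadjusted p below 0.05 (background 8.29%), DESeq2 gave 1 member an adjusted p and called 0 (background 1.78%), and the median was -0.17.

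The 21 genes called lower in females can be set beside the male values, with no test across the tables. Of these, 20 were listed in males. With fracture 17 of the 20 were below 0, with a median of -0.44 and none called. Without fracture 7 were below 0 and 13 above, with a median of 0.15, and averaged 13 were below 0 and 1 (Prim2) was called. None of 28 male mitosis genes was called in the averaged comparison, with a median of 0.06, and Mki67 read 5.1, 4.37 and 3.6 CPM in residents against 1.62 and 8.45 CPM in repopulated cells without fracture. The averaged male log2 changes were -0.23 ± 0.68 for Mki67, 0.29 ± 0.65 for Top2a and -0.06 ± 0.51 for Ccna2, with adjusted p of 0.896, 0.858 and 0.968. The B cell markers summed to 429 to 543 CPM over the male residents and 312 to 451 CPM over the repopulated libraries. The listed border-associated macrophage markers summed to 2.9 to 10.9 CPM over the male residents and 5.03 to 80.0 CPM over the repopulated libraries. In the averaged male comparison Ms4a7 of that list rose (4.69), while the endothelial marker Pecam1 (-2.95) and the astrocyte marker Slc1a3 (-0.41) fell. The part of these shifts in the male values was not tested.

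By library, the mean log2 CPM of the 43 male genes was 2.71, 3.07 and 2.73 in residents without fracture and 3.45, 3.31, 3.13, 3.02 and 3.04 with fracture. It was 2.82 and 3.24 in repopulated cells without fracture, and 2.66, 2.81 and 3.28 as the lowest, median and highest with fracture. The repopulated libraries with fracture thus lay below every resident library with fracture, except replicate 7 at 3.28.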

How the data were processed

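RNA-seq of sorted microglia was deposited as 2 tables, 1 per sex, of estimated counts per transcript, whole numbers per the file headers and values. The submitters' processing notes name, for these deposited estimated counts, the quantifier RSEM 1.3.1, the aligner STAR 2.7.6a, the trimmers Trim Galore 0.6.7 and cutadapt 3.4, the reporting tools FastQC 0.11.9 and MultiQC 1.11, and R 4.1.3 with DESeq2 1.34.0, on GRCm38. How the authors ran each of them, and with which gene models, is not given in the sources used here. Of the transcript identifiers, 98.8% in each table occur in GENCODE M21. Transcripts were summed by gene.

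Each sex was fitted alone, with its 4 groups in 1 model, in edgeR 4.0.16 (R 4.3.3, limma 3.58.1; TMM, low-count filter, which removed no gene, robust quasi-likelihood test), with Benjamini-Hochberg adjustment over all genes and calls below 0.05. Errors of log2 changes are SE. log2 CPM used a prior count of 2. The averaged comparison is the mean of the changes with and without fracture. DESeq2 1.42.0, other scalings, filters, group choices, a replicate block and leaving out each library were alternatives, and steps were tested on simulated data. The genes, the lists beside them and the roles were chosen with earlier results of these data known. Values per library were given for at most 14 genes per table, those called in a repopulation comparison by smallest adjusted p, filled up to 8 by unadjusted p. Up to 4 called genes per further list, Mki67, Top2a and Ccna2, and the 10 genes most like the set's mean were named. Beyond that rule, female Cdc6, Pcna, Rfc1, Gins4, E2f1 and Atad5 and male Mcm2 were chosen after their values were seen. Promoters are shown for 5 of the 6 genes with the smallest adjusted p and a motif (the other is Dnmt1). Motifs were searched on both strands of the RefSeq promoter table. Some items of the lists are not reported here.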

Additional observations from a re-analysis of the deposited data

Results flagged for a closer look

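Single libraries stood far from the rest of their group in 4 of 63 group values tested, where chance gives about 1 in 20. Female Ccne1 read 1.08 CPM in repopulated replicate 1 with fracture, against 0.0 to 0.173 CPM in the other 3 libraries. Female Mcm4 read 23.2 CPM in resident replicate 1 with fracture, below the 32.5 to 34.1 CPM of the others. Female Dnmt1 read 31.2 CPM in repopulated replicate 3 with fracture, above the others at 24.0 to 25.2 CPM. The mean log2 CPM of the male genes was 3.28 in repopulated replicate 7 with fracture, against 2.66 to 2.89 in the other 6.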

How the results depend on the processing

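No called change reversed under any alternative run, but the male medians without fracture and for fracture in repopulated cells crossed 0. The averaged female count of genes lower was 14 to 24 over all alternatives against 21, with medians from -0.79 to -0.54, and it was 21 when only transcripts listed in both tables were summed. Counts per fracture state moved more. Against 6 lower without fracture, DESeq2 gave 13, fitting only the 2 groups compared 0, leaving out resident replicates 1 and 2 together 0, and leaving out single libraries 0 to 9. Against 2 lower and 0 higher with fracture, DESeq2 gave 13 and 1, only the 2 groups 10 and 1, without both replicates 10 and 1, and single libraries 0 to 8 and 0 to 1. The averaged count of genes higher, 0, was 1 by DESeq2 and 0 to 1 without single libraries. Female fracture in residents (lower) and the interaction (higher) gave 0 to 1 without single libraries. For males with fracture, 0 lower became 2 with library totals only, 3 with a filter at 5 CPM, 3 by DESeq2, 1 with only the 2 groups, and 0 to 2 without single libraries. The 2 male averaged calls became 1 with transcripts of both tables and 0 to 2 without single libraries. Male calls without fracture were 0 to 1 lower and 0 to 1 higher, with medians from -0.18 to 0.25. The male median was -0.36 to 0.06 for fracture in repopulated cells and -0.56 to -0.19 for the interaction. The causes were not tested.

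Same-numbered libraries of different groups did not clearly deviate together: the correlations of their deviations were -0.312 to 0.211 in females and -0.078 to 0.05 in males. Between female resident and repopulated groups without fracture, 2 of 3 same-numbered pairs were above 0.1. Other pairs there ran from -0.244 to 0.3. With so few libraries per group, these values cannot exclude a pairing by number. With a replicate block, the count lower was 2 without fracture, 1 with fracture and 18 averaged in females, and 2 with fracture and 1 averaged in males.

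Over all genes, against 338 calls without and 315 with fracture in females, DESeq2 gave 676 and 680, only the 2 groups 0 and 629, the replicate block 143 and 184, and leaving out resident replicates 1 and 2 without fracture 12 and 539. Depth limits genes such as Ccne1, with 3 or fewer counts in most repopulated libraries, and 2 repopulated male libraries limit every male value without fracture.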

Other observations

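Outside every list, the genes whose log2 CPM followed the mean of the replication genes most closely over the 15 female libraries were Stmn1 (Pearson r = 0.963), Hmgn2 (0.948), Cit (0.941), Cenpa (0.934), Ccnf (0.933), Arhgef39 (0.932), Racgap1 (0.93), Emp3 (0.93), Cdca8 (0.923) and Kpna2 (0.922). These r values are descriptions over libraries that share groups and depth. Several of them act in division, such as Cenpa, the centromeric histone variant, Racgap1 and Cit, which work in cytokinesis, and Cdca8, a subunit of the chromosomal passenger complex. That mean was itself lower in repopulated libraries, so the choice fixes the direction of these genes, and their averaged log2 changes, from -2.38 for Cdca8 to -0.34 for Emp3, are a description.

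Over the 17 male libraries the closest were Stmn1 (0.882), Parn (0.749), Mrps10 (0.732), Prr11 (0.726), Hmgn2 (0.724), Shcbp1 (0.718), Gm45435 (0.708), Bcl2l12 (0.693), Sgpp1 (0.692) and Mrps2 (0.684). Stmn1, which encodes a microtubule-destabilising protein, and Hmgn2, a nucleosome-binding protein gene, were in the first 10 in both tables. The replication genes also differed in how far they followed the mean of their fellows, from 0.941 for Mcm5 to -0.22 for E2f1 in females and from 0.747 for Rrm2 to -0.495 for Brca2 in males.

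Some relatives of the set were higher in repopulated males in the averaged comparison. Dna2, a nuclease and helicase of flap processing, rose by 1.58 ± 0.21 on the log2 scale (adjusted p = 2.05e-05), and the salvage kinase gene Dck rose by 0.95 ± 0.15 (adjusted p = 0.000132), as did Samhd1 (0.64 ± 0.18, adjusted p = 0.0188). Cdkn1c, a CDK inhibitor gene, fell (-1.76 ± 0.36, adjusted p = 0.00147).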
